A study of Mus musculus with 4 samples.

Results

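The UDP-glucuronosyltransferase (Ugt) and cytosolic sulfotransferase (Sult) genes of mouse liver were followed across 4 tissue sections by spatial transcriptomics. Every gene whose symbol begins with Ugt1, Ugt2, Ugt3, Ugt8 or with Sult and a digit was taken, with pseudogene names marked -ps left out. The choice used no measured value. It gave 43 of the 32285 genes in the deposited tables, 22 Ugt and 21 Sult genes. The sections came from 2 mouse models of hepatocellular carcinoma. STAM is a metabolic model that, per the series' design text, mimics metabolic steatohepatitis and type I diabetes, and its sections are labelled STAM20w and STAM16w. DEN+CCL4 is a fibrotic model driven by DNA damage, made with the carcinogen diethylnitrosamine (DEN) and the liver toxicant carbon tetrachloride (CCL4), and its sections are labelled DEN30w and DEN22w. The labels give 20, 16, 30 and 22 weeks with no statement of what the weeks count from, and they give no strain, sex or age and no untreated liver. Each time is 1 section, the models share no labelled week, and no label tells whether a model's sections came from different animals. A p-value across sections therefore covers the variation among these 4 sections, which may in part be technical.

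Glucuronosyltransferases sit in the endoplasmic reticulum and join glucuronic acid from UDP-glucuronate to bilirubin, steroids, bile acids and drugs. Sulfotransferases in the cytosol join sulfate from PAPS, the activated form of sulfate, to phenols, steroids and bile acids. Both reactions make small hydrophobic molecules soluble for export into bile or blood, and hepatocytes carry most of this work in the body. Hepatocytes differ along the liver lobule, from the portal tract where blood enters to the central vein where it leaves, and many conjugating enzymes are known to follow that axis.

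The assay, Visium, captures the RNA of a tissue section on barcoded spots. A spot covers a small area that can hold several cells, so fewer cells of a type and less RNA per cell cannot be told apart. After spots with under 500 molecules (UMIs, unique molecular identifiers) or under 250 genes were removed, 2833 spots remained in STAM20w, 2080 in STAM16w, 2968 in DEN30w and 2746 in DEN22w. The kept spots held 20700642 to 40008457 UMIs per section, with a median of 7302.5 to 12761 UMIs per spot. All 6 hepatocyte markers were detected in every section, and their summed level lay between 29918 and 74180 CPM (a gene's UMIs per 1000000 UMIs). Cholangiocyte markers summed to 8.60 to 30.1 CPM, T and B cell markers to 4.95 to 23.97 CPM and neutrophil markers to 8.63 to 72.5 CPM. In DEN22w, 1 of the 6 neutrophil and 1 of the 6 erythroid markers were at 0. Pairs of sections shared 1635 to 2091 spot barcodes, which name positions printed alike on each slide. STAM20w stands apart: it alone held compact patches, 6 clusters of adjoining spots with 968 spots in all, and its values are given with and without them where they bear on a result. Levels are CPM of all kept spots of a section, with exact Poisson 95% intervals that cover counting error only. Such counts are made near the 3′ end of transcripts and are not divided by length, so levels of different genes were set side by side only as UMI counts.

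Of the 43 genes, 23 were above 1 CPM in at least 1 section (12 Ugt and 11 Sult genes), which is 53.5% of them against 41.8% of all genes, and together all 43 made up 0.286% of the UMIs of STAM20w, 0.333% of STAM16w, 0.210% of DEN30w and 0.238% of DEN22w. Another 8 had 0 UMIs in every section: Ugt1a10, Ugt1a8, Ugt1a5, Ugt2a1, Ugt2a2, Sult1c1, Sult3a2 and Sult6b2. With the limit of a count of 0 taken as 3 counts over the UMIs of the section, it allows up to 0.0750 CPM in STAM20w, 0.145 CPM in STAM16w, 0.0860 CPM in DEN30w and 0.134 CPM in DEN22w. The remaining 12 were detected but stayed at or below 0.975 CPM: Ugt1a1, Ugt1a2, Ugt1a6b, Ugt1a9, Ugt8a, Sult2a3, Sult2a4, Sult2a5, Sult2a6, Sult3a1, Sult4a1 and Sult6b1. Ugt1a1, the bilirubin-conjugating enzyme, was listed at 0.975 CPM in STAM20w, 0.580 CPM in STAM16w, 0.115 CPM in DEN30w and 0.134 CPM in DEN22w. Its low count comes with a limit of the locus. In the RefSeq annotation of GRCm38.p6, the 9 Ugt1a genes overlap on chromosome 1 between 88055411 and 88220002, and 7 of them end at base 88220002. Reads near that shared end cannot be assigned to 1 gene, and the summed Ugt1a level was 2.75 to 3.83 CPM.

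The Ugt2 genes gave most of the glucuronosyltransferase counts that were assigned to a gene. They lie in 1 cluster on chromosome 5 (GRCm38.p6, 86889770 to 87591611, 702 kb) that holds 13 of the genes, 10 Ugt and 3 Sult1 genes, 11 of them above 1 CPM. Ugt2b enzymes are known to conjugate steroids, bile acids and fatty acids. Ugt2b5 was at 376 CPM in STAM20w (interval 370 to 382), 724 in STAM16w (712 to 735), 325 in DEN30w (319 to 331) and 399 in DEN22w (390 to 407). Ugt2b36 was at 305 CPM in STAM20w, 545 in STAM16w, 463 in DEN30w and 471 in DEN22w. STAM16w was thus the highest section for both, while STAM20w was the lowest for Ugt2b36 and DEN30w the lowest for Ugt2b5. Ugt2b34 was at 207 CPM in STAM20w, 244 in STAM16w, 183 in DEN30w and 163 in DEN22w. Ugt2b35 was at 168 CPM in STAM20w, 202 in STAM16w, 97.4 in DEN30w and 97.3 in DEN22w. For these 2 genes both STAM sections lay above both DEN+CCL4 sections. Ugt2b1 was at 32.2 CPM in STAM20w, against 146 in STAM16w, 103 in DEN30w and 163 in DEN22w. Ugt2a3, a bile acid-conjugating enzyme in humans, was at 64.4, 118, 98.1 and 125 CPM in STAM20w, STAM16w, DEN30w and DEN22w. Both were lowest in STAM20w. Ugt2b38 was at 0.0750, 7.25, 0.258 and 6.94 CPM in the same order of sections, resting on 3, 150, 9 and 156 UMIs. Ugt2b37 was at 0.85 CPM in STAM20w, 6.52 in STAM16w, 0.688 in DEN30w and 0.534 in DEN22w. Ugt2b38 was therefore near 0 in the later section of each model, and Ugt2b37 stood out in STAM16w alone.

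The Ugt3a pair on chromosome 15 (9279822 to 9370955) encodes enzymes that in humans use sugars other than glucuronic acid. Ugt3a2 was at 149 CPM in STAM20w, 209 in STAM16w, 114 in DEN30w and 119 in DEN22w. Ugt3a1 was at 35.5 CPM in STAM20w, 79.6 in STAM16w, 21.7 in DEN30w and 27.8 in DEN22w. Both genes were highest in STAM16w and higher in either STAM section than in either DEN+CCL4 section. Summed over all 22 Ugt genes, the level was 1341 CPM in STAM20w, 2284 in STAM16w, 1410 in DEN30w and 1576 in DEN22w, and the top 3 genes gave 65.5% to 68.9% of it. The leading gene of the sum was Ugt2b5 in both STAM sections and Ugt2b36 in both DEN+CCL4 sections.

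Sult1a1, the main phenol sulfotransferase of liver, was the most counted gene of the whole group in STAM20w. It was at 1243 CPM in STAM20w (interval 1232 to 1254), 512 in STAM16w (502 to 522), 418 in DEN30w (411 to 425) and 295 in DEN22w (288 to 303). The 4 intervals do not overlap, and STAM20w was the highest section by a wide margin. In STAM20w, Sult1a1 gave 81.8% of all Sult counts, against 49.1% in STAM16w and 60.7% in DEN30w. In DEN22w the leading Sult gene was Sult2a8 with 46.6%. The Sult sum was 1520 CPM in STAM20w, 1042 in STAM16w, 689 in DEN30w and 803 in DEN22w. Sult1d1, which sulfates amines such as catecholamines, was at 46.5, 67.3, 89.9 and 70.04 CPM in STAM20w, STAM16w, DEN30w and DEN22w. Sult1b1, an enzyme of phenols and thyroid hormones, was at 14.1, 21.4, 15.7 and 16.7 CPM. Both varied by less than 2-fold across sections. Sult1e1, the estrogen sulfotransferase, was at 0.700 CPM in STAM20w, 1.35 in STAM16w, 5.45 in DEN30w and 0.312 in DEN22w, from 28, 28, 190 and 7 UMIs. DEN30w was the high section for that gene.

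The Sult2a genes sulfate steroids and bile acids and lie side by side on chromosome 7 (13623967 to 14493023, 8 genes, 4 above 1 CPM). They are near copies of each other, so the division of reads among them is uncertain. Sult2a8, a bile acid sulfotransferase of mouse liver, was at 158 CPM in STAM20w (interval 154 to 162), 389 in STAM16w (381 to 398), 126 in DEN30w (122 to 129) and 374 in DEN22w (366 to 382). The later section of each model was the lower one, by more than 2-fold. Sult2a7 was at 38.3, 28.1, 12.4 and 17.0 CPM in STAM20w, STAM16w, DEN30w and DEN22w. Sult2a2 was at 8.25 CPM in STAM20w from 330 UMIs, while the other sections held 1, 0 and 2 UMIs. Sult2a1 was at 2.40 CPM in STAM20w, 0.0966 in STAM16w, 0.831 in DEN30w and 0.267 in DEN22w. Sult2a1 and Sult2a2 were thus counted mainly in STAM20w. In mice these 2 genes are known for higher liver levels in females, and the labels give no sex. Sult2b1, known for sulfating cholesterol, was at 1.22 CPM in STAM20w and at most 0.229 CPM elsewhere. Sult5a1 was at 2.30 CPM in STAM20w, against 19.8 in STAM16w, 17.2 in DEN30w and 26.0 in DEN22w. Sult1c2 was at 2.61 to 3.85 CPM in the 4 sections, Ugt1a7c at 1.11 to 2.71 CPM and Ugt1a6a at 0.500 to 1.003 CPM, with no section apart by more than 3-fold. Taking CPM without mitochondrial, ribosomal protein, Mup and immunoglobulin genes raised every level of a section by the same factor, 1.13 in STAM20w, 1.23 in STAM16w and 1.06 in both DEN+CCL4 sections.

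**Figure D1:**
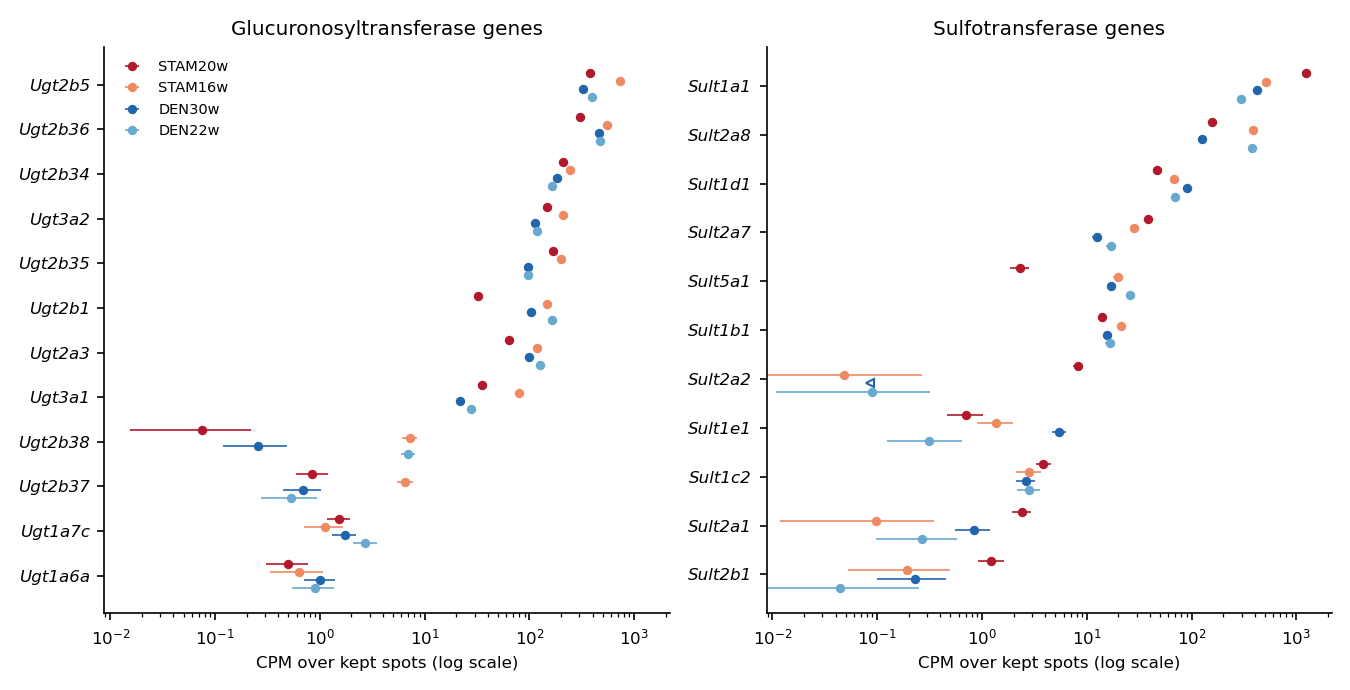
Levels of the 23 Ugt and Sult genes above 1 CPM, in CPM on a log axis, for STAM20w, STAM16w, DEN30w and DEN22w. Points are sections, bars are exact Poisson 95% intervals, and the open triangle marks the limit that a count of 0 allows. Sult1a1 lies at 1243 CPM in STAM20w, above its 295 to 512 CPM in the other sections, and Sult2a2 is counted mainly in STAM20w.

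Most spots held several of the abundant transcripts. Sult1a1 had at least 1 UMI in 97.2% of spots of STAM20w, 95.7% of STAM16w, 87.9% of DEN30w and 80.7% of DEN22w. Spots differ in depth, so every spot was also thinned to 2000 UMIs. At that depth Sult1a1 was found in 89.6% of STAM20w spots, 62.2% of STAM16w, 54.3% of DEN30w and 43.6% of DEN22w, in the same order as the CPM. Sult2a8 was found in 24.8%, 52.6%, 20.8% and 53.0% of thinned spots of the same sections, again high in the earlier section of each model. Shallower spots were left out of the thinning, 210 in STAM20w, 42 in STAM16w, 338 in DEN30w and 199 in DEN22w. Across single spots of STAM20w, Sult1a1 ran from 640 CPM at the 10th percentile through a median of 1194 CPM to 2016 CPM at the 90th, and 1 spot held 100 UMIs of it.

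Position along the lobule was then compared. Spots outside the patches with at least 2000 UMIs were ranked within each section by 8 pericentral landmarks (such as Cyp2e1 and Glul) against 8 periportal ones (such as Cyp2f2 and Hal), none of them a Ugt or Sult gene, and split into equal classes called pericentral, middle and periportal. A further 6 pericentral and 6 periportal genes kept out of the ranking all followed it in the test described next. Within DEN30w 1 of them, Cdh1, was level (log2 -0.004, interval -0.24 to 0.23). These lists were chosen with earlier results of these data known, so they are not an independent check. Summed counts of the pericentral and the periportal class of each section were compared by edgeR's quasi-likelihood test with the section as a block (n = 4 sections), with p-values adjusted by Benjamini-Hochberg over the 13117 genes tested. Of the 43 genes 21 could be tested. Ugt2b35 and Ugt2b34 were higher in pericentral spots, and Sult1a1, Sult2a7, Sult5a1 and Ugt2b38 were lower there. That is 6 of 21, where 9.71% of all genes tested were called, 5.12% of them higher and 4.6% lower in pericentral spots. The median log2 difference was -0.02 over the 21 genes and 0.01 over all genes.

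The sequence before the transcript start of these genes is shown because they were called between zones, 2 higher and 4 lower in pericentral spots. Each is the 250 bases before the 1 start listed per gene in the table used here, from RefSeq, build GRCm38.p6, written on the gene's own strand from 5′ to 3′, for the 5 of the 6 genes with an entry. Capitals mark the letters AGGTCA, the unit bound by many nuclear receptors, and GTTAAT, core letters of sites for the hepatocyte factor HNF1. Ugt2b35 lies at chr5:87000610-87000859 (+), Ugt2b34 at chr5:86906938-86907187 (-), Sult1a1 at chr7:126676419-126676668 (-), Sult5a1 at chr8:123158281-123158530 (-) and Ugt2b38 at chr5:87424204-87424453 (-). For the 3 Ugt2b genes that start is the outermost edge of the annotated gene, while it lies 634 bases inside the annotated span of Sult5a1 and 14025 bases inside that of Sult1a1, so these 2 windows precede an inner start and not the whole gene.
Ugt2b35: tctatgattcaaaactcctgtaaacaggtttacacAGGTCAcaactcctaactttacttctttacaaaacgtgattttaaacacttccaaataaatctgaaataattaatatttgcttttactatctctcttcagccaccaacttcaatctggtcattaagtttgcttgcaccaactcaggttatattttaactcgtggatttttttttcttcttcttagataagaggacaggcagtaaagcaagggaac
Ugt2b34: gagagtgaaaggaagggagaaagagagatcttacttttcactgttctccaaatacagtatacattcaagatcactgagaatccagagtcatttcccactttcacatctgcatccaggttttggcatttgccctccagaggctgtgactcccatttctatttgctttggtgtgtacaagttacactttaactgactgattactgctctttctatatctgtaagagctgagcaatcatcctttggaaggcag
Sult1a1: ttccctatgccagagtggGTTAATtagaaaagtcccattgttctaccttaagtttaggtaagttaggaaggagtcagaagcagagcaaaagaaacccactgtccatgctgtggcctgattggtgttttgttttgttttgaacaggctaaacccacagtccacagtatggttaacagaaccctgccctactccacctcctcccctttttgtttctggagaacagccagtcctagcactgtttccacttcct
Sult5a1: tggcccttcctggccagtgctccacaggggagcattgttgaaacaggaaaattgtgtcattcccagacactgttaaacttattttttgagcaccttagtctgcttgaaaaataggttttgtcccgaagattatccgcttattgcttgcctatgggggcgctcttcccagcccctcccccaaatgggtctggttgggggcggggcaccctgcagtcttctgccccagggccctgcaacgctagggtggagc
Ugt2b38: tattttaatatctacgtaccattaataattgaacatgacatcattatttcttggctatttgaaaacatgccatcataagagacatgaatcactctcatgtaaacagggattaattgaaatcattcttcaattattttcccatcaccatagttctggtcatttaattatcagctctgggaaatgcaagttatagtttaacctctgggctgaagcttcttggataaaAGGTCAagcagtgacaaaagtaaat

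AGGTCA stood 215 bases before the start of Ugt2b35 and 25 bases before that of Ugt2b38, and GTTAAT 232 bases before the inner start of Sult1a1. Neither was in these windows of Ugt2b34 and Sult5a1. Searched on both strands, GTTAAT was in 6.52% of the windows of 27025 genes and in 5 of the 19 Ugt and Sult genes above 1 CPM with an entry. AGGTCA was in 13.8% of all windows and in 8 of those 19, among them Ugt2b35, Ugt2b36, Ugt2b5, Ugt2b37, Ugt2b38, Sult1b1 and Sult1e1. The Ugt2 genes are neighbouring copies, and over 28 pairs of 8 of their windows identity ran from 48.4% to 89.6% with a median of 54.8%. Ugt2b38 and Ugt2b37, the closest pair, shared 89.6%, and Ugt2b5 shared 84.8% with Ugt2b38.

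Ugt2b35 was at 186, 155 and 126.8 CPM in the pericentral, middle and periportal spots of STAM20w and at 235, 201 and 167 CPM in those of STAM16w. In DEN30w it was at 116, 98.1 and 80.8 CPM, and in DEN22w at 115, 96.7 and 84.2 CPM. The level stepped down from the central to the portal side in all 4 sections, and the fitted log2 difference was 0.40 ± 0.0653 (SE, edgeR adjusted p = 0.00221). Ugt2b34, in the same cluster, was at 229, 206 and 165 CPM in STAM20w, 279, 228 and 221 in STAM16w, 206, 189 and 156 in DEN30w, and 188, 156 and 149 in DEN22w. The order was the same in each section, with a log2 difference of 0.28 ± 0.0656 (SE, edgeR adjusted p = 0.0192). This call was lost without STAM20w (adjusted p = 0.0859), without DEN30w (0.0734), without DEN22w (0.0678), with the patches kept in (0.0775) and by DESeq2 (0.0668), while the log2 value stayed between 0.23 and 0.39 over all alternatives. The other abundant Ugt2b genes differed little: Ugt2b5 by 0.05 ± 0.0690 and Ugt2b36 by 0.03 ± 0.0681 (log2 ± SE, edgeR adjusted p = 0.755 and 0.849). Ugt2b1, which lies between Ugt2b34 and Ugt2b35, differed by -0.02 ± 0.0786 (log2 ± SE, edgeR adjusted p = 0.933).

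Sult1a1 ran the other way. In STAM20w it was at 1019, 1097 and 1579 CPM in pericentral, middle and periportal spots, and in STAM16w at 467, 491 and 584 CPM. In DEN30w it was at 364, 404 and 474 CPM and in DEN22w at 259, 285 and 327 CPM. Pericentral spots were the lowest class in every section, and the log2 difference was -0.53 ± 0.0716 (SE, edgeR adjusted p = 0.000558). Sult5a1 was at 1.87 against 3.83 CPM (pericentral against periportal) in STAM20w, 12.6 against 27.2 in STAM16w, 14.4 against 23.9 in DEN30w and 16.7 against 30.1 in DEN22w. It had the smallest adjusted p of the group, with a log2 difference of -1.02 ± 0.0929 (SE, edgeR adjusted p = 2.59e-05), and its STAM20w value rests on 14 and 36 UMIs. Sult2a7 was at 33.7 against 62.8 CPM in STAM20w, 28.2 against 28.7 in STAM16w, 9.38 against 15.7 in DEN30w and 13.7 against 19.9 in DEN22w. STAM16w showed next to no difference, the fitted log2 difference was -0.67 ± 0.13 (SE, edgeR adjusted p = 0.00593), and without STAM20w it was -0.51 with an adjusted p of 0.0644.

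Ugt2b38 was at 4.52 against 12.2 CPM in STAM16w and 2.62 against 8.89 CPM in DEN22w (pericentral against periportal), the 2 sections in which it was well counted. In DEN30w the classes held 1 and 6 UMIs, and in STAM20w both held 0. Its log2 difference was -1.68 ± 0.26 (SE, edgeR adjusted p = 0.00180). Sult1e1 was at 8.25, 5.29 and 3.15 CPM in the 3 classes of DEN30w, the section where it was high, and missed the threshold over all sections (log2 0.98 ± 0.31 SE, edgeR adjusted p = 0.0645). Sult2a8 was at 460, 404 and 294 CPM from the central to the portal side of STAM16w and at 129, 136 and 114 CPM in DEN30w. Its log2 ratios of pericentral over periportal CPM were 0.10 in STAM20w, 0.65 in STAM16w, 0.18 in DEN30w and 0.17 in DEN22w, so STAM16w alone stood apart. The fitted log2 difference was 0.16 ± 0.0967 (SE, edgeR adjusted p = 0.350).

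**Figure D2:**
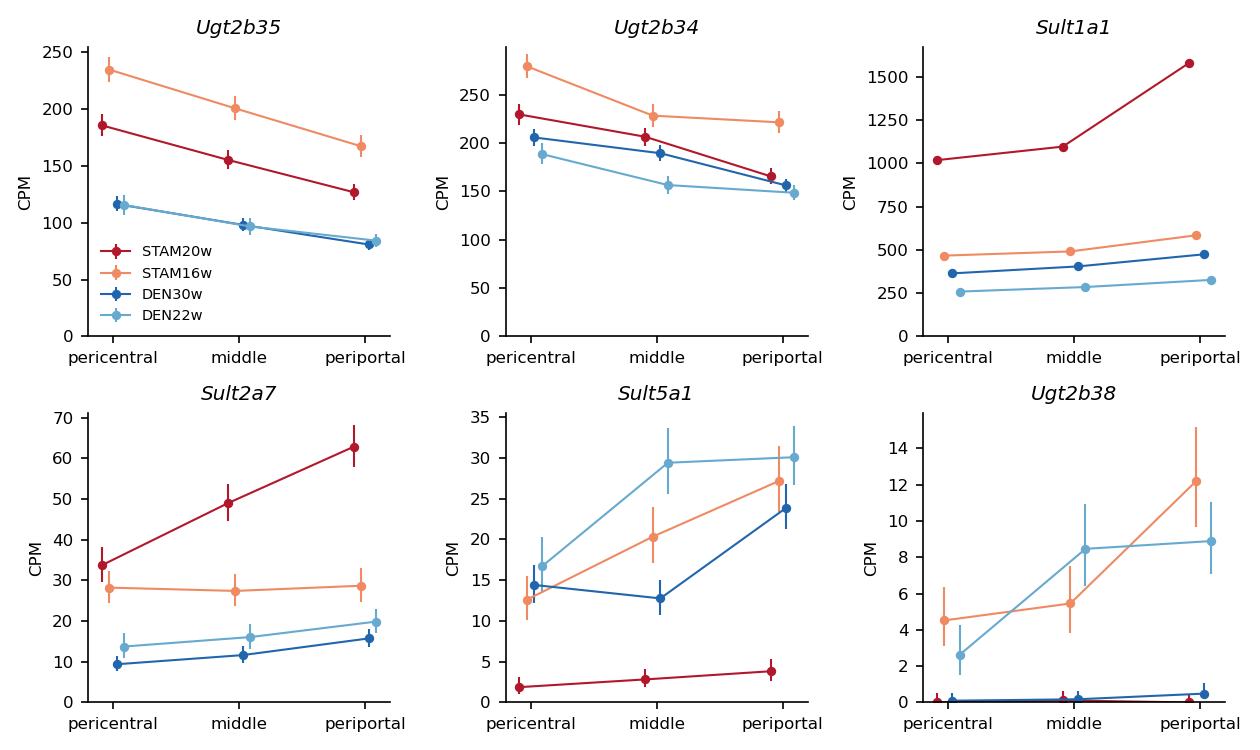
Levels of the 6 Ugt and Sult genes called between zones, in CPM, in pericentral, middle and periportal spots, with 1 line for each section and exact Poisson 95% intervals. Ugt2b35 and Ugt2b34 step down towards the portal side in all 4 sections, and Sult1a1 is lowest in the pericentral class in all 4.

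Depth and stroma moved with these classes. The pericentral and periportal spots had median depths of 12549 and 15630 UMIs in STAM20w, 10407 and 9346 in STAM16w, 9800 and 12474 in DEN30w and 6465 and 10138 in DEN22w. Collagen-rich spots, defined below, made up 14.0% of the pericentral and 6.41% of the periportal class in STAM20w, 9.71% and 10.9% in STAM16w, 15.5% and 1.83% in DEN30w and 18.3% and 3.06% in DEN22w. Of 6 macrophage markers 5 were higher in pericentral spots. With classes balanced on depth, and with collagen-rich spots left out, all 6 genes kept their call. Scaling to library size without TMM factors moved the median gene to 0.12 and the split of called genes to 1236 higher and 296 lower, against 671 and 603, and left 2 higher and 4 lower genes in this group. The TMM factors also place fitted differences below the plain CPM ratios: for Ugt2b34 the 4 sections' own log2 ratios were 0.47, 0.34, 0.40 and 0.34 in STAM20w, STAM16w, DEN30w and DEN22w.

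**Figure D3:**
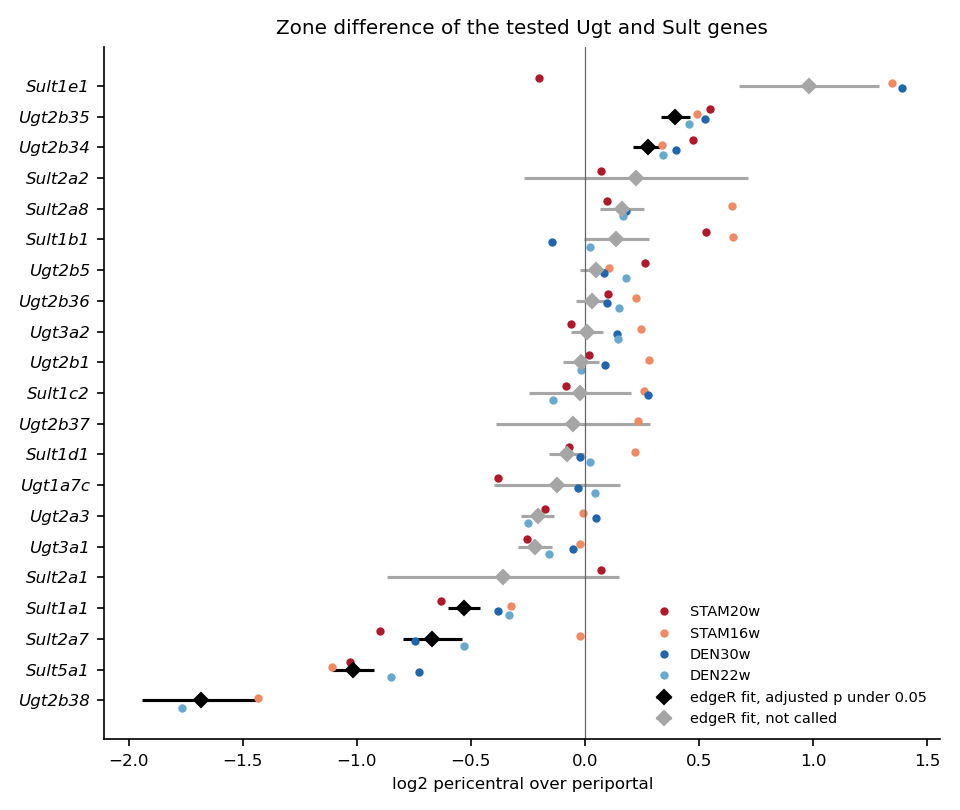
Log2 difference of pericentral over periportal spots for the Ugt and Sult genes tested, by section (points, plain CPM, drawn where both classes together held at least 20 UMIs) and from the edgeR fit over 4 sections (diamonds, with bars of 1 SE, black where called). Sult5a1, Sult1a1 and Sult2a7 lie below 0 in all 4 sections, and Ugt2b35 and Ugt2b34 above 0 in all 4.

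Genes around the donor molecules were read from the same fit, where 9.71% of all genes tested were called. One list covers UDP-glucuronate supply and glucuronide hydrolysis, the other sulfate donor supply and desulfation. They are called UDP-glucuronate supply and sulfate supply for short. Both also hold genes that neither make nor carry the donors, such as Gusb in the first and Bpnt1 and Tpst1 in the second. Of 6 genes of UDP-glucuronate supply, only Ugdh, the enzyme that makes UDP-glucuronate, was called, and it was higher in pericentral spots (log2 0.29 ± 0.0811 SE, edgeR adjusted p = 0.0380). Of 10 tested genes of sulfate supply, 2 were lower there: Slc26a1, a sulfate transporter (log2 -0.24 ± 0.0667 SE, edgeR adjusted p = 0.0369), and Tpst1, which sulfates tyrosines of secreted proteins in the Golgi (log2 -0.50 ± 0.0795 SE, edgeR adjusted p = 0.00170). Of 14 nuclear receptors and other regulators 3 were higher and 2 lower, and of 8 conjugate transporters 3 were higher. The median log2 difference of the UDP-glucuronate list was -0.08 and of the sulfate list -0.12.

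Whether the zone difference of a gene differed between STAM and DEN+CCL4 was tested as an interaction in the same sums. Of 21 genes 1 was called, where 1.83% of all genes were, 0.831% with a higher and 0.999% with a lower difference in STAM. Sult1b1 was at 19.5 against 13.5 CPM (pericentral against periportal) in STAM20w and 24.7 against 15.7 in STAM16w. In DEN30w it was at 14.97 against 16.5 CPM and in DEN22w at 16.03 against 15.8 CPM. Both STAM sections were higher on the central side, while the DEN+CCL4 sections were level within counting error. The difference between the models' log2 differences was 0.80 ± 0.17 (SE, edgeR adjusted p = 0.0245). The call was lost in 7 of 11 alternatives, with values from 0.58 to 0.91 over the 11. The value was 0.71 without STAM16w and 0.72 without DEN30w, each with 1 section left in a model. Leaving out STAM20w left STAM16w as the only STAM section, so only effect sizes are given. The log2 value was then 0.40 for Ugt2b1, 0.88 for Sult1b1, 0.63 for Sult2a8 and 0.78 for Sult2a7. Of the supply genes, Suox, which oxidises sulfite to sulfate (log2 0.65 ± 0.11 SE, edgeR adjusted p = 0.00451), and Ugp2, which makes UDP-glucose (log2 0.45 ± 0.0982 SE, edgeR adjusted p = 0.0245), were called in the same direction. Scaling without TMM factors turned the split of called genes to 62 higher and 355 lower, against 109 and 131, and left Sult1b1 called.

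Whole sections of the models were compared with edgeR's quasi-likelihood test, 2 STAM sections against 2 DEN+CCL4 sections. None of the 22 genes tested passed the threshold, while 7 had an unadjusted p under 0.05, and 0.437% of all 14417 genes tested were called, 0.291% higher and 0.146% lower in STAM. The median log2 difference was 0.39 over the 22 genes and -0.00 over all genes. DESeq2 called 5 of the 21 it tested, where it called 10.9% of all genes, all 5 higher in STAM: Ugt2b35, Sult2a7, Sult1a1, Ugt3a1 and Ugt2b37, which are named here after their values were seen. In the edgeR fit Ugt2b35 was higher by a log2 difference of 1.11 ± 0.25 (SE, adjusted p = 0.0970), and its STAM sections at 168 and 202 CPM did not overlap the DEN+CCL4 sections at 97.4 and 97.3 CPM. Sult2a7 differed by 1.33 ± 0.26 (SE, edgeR adjusted p = 0.0853), Sult1a1 by 1.45 ± 0.44 (0.145), Ugt3a1 by 1.41 ± 0.46 (0.158) and Ugt2b37 by 2.78 ± 1.005 (0.184). The STAM sections were above the DEN+CCL4 sections for all 5, though for Ugt2b37 STAM20w, at 0.85 CPM, was only just above DEN30w, at 0.688 CPM. Leaving out STAM16w left STAM20w as the only STAM section, so only effect sizes are given. Sult1a1 was then higher (log2 1.89) and Sult5a1 lower (log2 -3.16) in STAM20w than in the DEN+CCL4 sections. Sult2a2 passed the low-count filter there only through STAM20w (330 UMIs, against 0 in DEN30w and 2 in DEN22w), so its difference is not read further. With STAM16w as the only STAM section, Ugt2b37 was higher by a log2 difference of 3.62. In the fit of all 4 sections no gene of UDP-glucuronate supply, sulfate supply, regulation or transport was called.

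The later and the earlier section of each model were compared as levels, with no test since each time is 1 section. A gene counted as called where the levels were at least 2-fold apart and the higher was at least 5 CPM. Between STAM20w and STAM16w 8 of 17 genes at 5 CPM were called, 2 higher and 6 lower in STAM20w, where 9.87% of all genes were called, 7.12% higher and 2.75% lower. The median log2 difference was -0.84 over the 17 genes and 0.14 over all genes. Sult1a1, at 1243 against 512 CPM, was 2.43-fold higher in STAM20w (95% counting interval 2.38 to 2.48). Sult2a2 was 171-fold higher, with an interval of 30.4 to 6764 since STAM16w held 1 UMI. It met the 5 CPM limit only through STAM20w, so its difference is not read further. The 6 lower genes were Ugt2b1, Ugt2b37, Ugt2b38, Ugt3a1, Sult2a8 and Sult5a1. Ugt2b1 stood at 0.221 of its STAM16w level (0.207 to 0.236), Sult5a1 at 0.116, Ugt2b37 at 0.130, Sult2a8 at 0.406 and Ugt3a1 at 0.446. Ugt2b38, with 3 UMIs in STAM20w, stood at 0.0103 (0.00211 to 0.0308). Ugt2b37, Ugt2b38 and Sult5a1 met the 5 CPM limit only through STAM16w. Without the patches of STAM20w, Ugt3a1, Sult2a8 and Sult2a2 lost their call. The log2 differences of Ugt3a1 and Sult2a8 were then -0.89 and -0.93, inside the 2-fold limit, and Sult2a2 was then below 5 CPM.

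Between DEN30w and DEN22w 3 of 16 genes were called, where 3.96% of all genes were, 3.09% higher and 0.874% lower in DEN30w. The median log2 difference was -0.19 over the 16 genes and 0.09 over all genes. Sult1e1, at 5.45 against 0.312 CPM, was 17.5-fold higher in DEN30w (8.32 to 44.1), and on a TMM scale its level fell under the 5 CPM limit. It met that limit only through DEN30w, so its difference is not read further. Ugt2b38 stood at 0.0372 of its DEN22w level (0.0167 to 0.0724) and Sult2a8 at 0.336 (0.324 to 0.348). Sult2a8 and Ugt2b38 were therefore called lower in the later section of both models, which share no sections in these 2 comparisons. Ugt2b38 met the 5 CPM limit only through the earlier section in both. The most counted Ugt genes moved less: Ugt2b36 stood at 0.559 of its earlier level in STAM and at 0.983 in DEN+CCL4, and Ugt2b5 at 0.519 and 0.815.

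**Figure D4:**
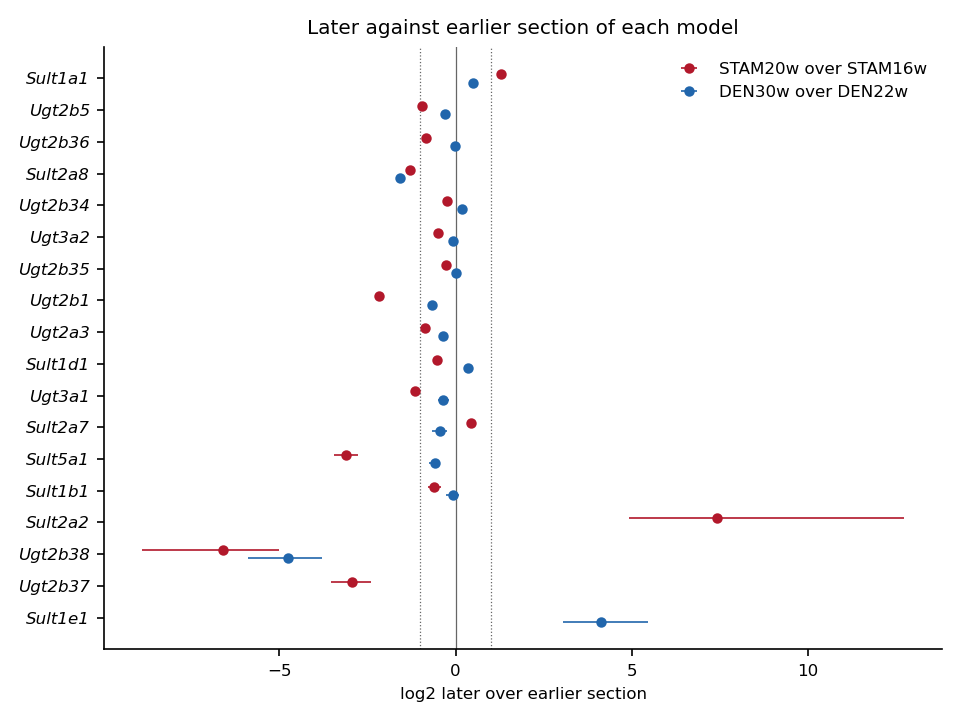
Log2 difference of the later over the earlier section for each Ugt and Sult gene at 5 CPM or more in either section, in STAM (STAM20w over STAM16w) and DEN+CCL4 (DEN30w over DEN22w), with 95% counting intervals and dotted lines at the 2-fold limit. Sult2a8 and Ugt2b38 lie below -1 in both models, Sult1a1 lies above 1 in STAM, and Sult1e1 lies above 1 in DEN+CCL4.

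The patches of STAM20w were compared with the spots outside all patches by the same 2-fold rule, with no test. A gene could meet the 5 CPM limit through the patch alone. Outside the patches Sult2a2 was at 3.23, Sult2a1 at 1.14, Sult1c2 at 2.77 and Sult5a1 at 2.89 CPM. Ugt2b37 was at 0.874 and Ugt1a7c at 1.52 CPM there. Higher calls of these genes met the limit only through a patch, so the counts of higher genes are not read further. Patches were found by clustering spots with the Ugt and Sult genes left out, and they are called here by their leading genes. In the patch led by Duox1, Cpe and Duoxa1 (274 spots), 4 of 14 genes at 5 CPM were called, 1 higher and 3 lower, where 8.82% of all genes were, 6.01% higher and 2.82% lower. Sult2a2 was at 23.98 CPM in the patch and 3.23 CPM outside all patches, 7.43-fold higher (5.68 to 9.78), and the patch held 48.8% of the section's UMIs of the gene. Sult2a7 was at 10.9 against 49.5 CPM, Sult2a8 at 68.8 against 205 CPM and Ugt2b1 at 16.2 against 38.1 CPM. Ugt2b35 was at 261 against 154 CPM and Ugt2b34 at 303 against 198 CPM, both higher by less than 2-fold. Hepatocyte markers summed to 21330 CPM in this patch and 36685 CPM outside, cholangiocyte markers to 38.7 and 19.4 CPM and macrophage markers to 811 and 1193 CPM, and their part in these values was not tested.

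The patch led by H19, Gm44427 and Afp (227 spots) had the most calls of the 3 larger patches. H19 and Afp are known from fetal liver and liver tumours. There 8 of 16 genes were called, 3 higher and 5 lower, against 9.65% of all genes, 6.57% higher and 3.08% lower. All 3 higher genes met the 5 CPM limit only through the patch. Sult2a1 was at 17.1 CPM in the patch and 1.14 CPM outside, 15.01-fold higher (9.50 to 24.2), and 60.4% of the section's Sult2a1 UMIs came from it. Sult2a2 was at 20.4 against 3.23 CPM and Sult1c2 at 7.08 against 2.77 CPM. Ugt3a1 was at 7.37 against 42.9 CPM and Ugt3a2 at 36.6 against 171 CPM, so both Ugt3a genes were low together. Ugt2b5 was at 183 against 411 CPM, Sult2a8 at 57.2 against 205 CPM and Sult2a7 at 5.60 against 49.5 CPM. The Ugt sum was 748 CPM in the patch and 1433 CPM outside, while the Sult sum was 1446 and 1584 CPM. Hepatocyte markers summed to 44629 CPM in this patch and 36685 CPM outside, cholangiocyte markers to 54.9 and 19.4 CPM and macrophage markers to 644 and 1193 CPM, and their part was not tested here either.

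In the patch led by Gm14210, Akr1c18 and Cib3 (272 spots), 4 of 14 genes were called, 1 higher and 3 lower, against 6.89% of all genes, 4.74% higher and 2.15% lower. Ugt3a2 was at 62.7 against 171 CPM, Sult2a8 at 64.3 against 205 CPM and Sult2a7 at 15.3 against 49.5 CPM, and Sult1c2 was at 7.91 against 2.77 CPM from 15 UMIs. Ugt3a2 was thus low there as in the H19 patch. In the patch led by A1bg, Noct and Cox7a1 (69 spots), 4 of 14 genes were called, 1 higher and 3 lower, where 9.54% of all genes were, 1.97% higher and 7.57% lower. Sult2a2 was at 10.4 against 3.23 CPM from 10 UMIs, Ugt3a1 at 16.6 against 42.9 CPM, Sult2a8 at 69.4 against 205 CPM and Sult2a7 at 21.8 against 49.5 CPM. Sult1a1, at 1862 CPM, was 1.49-fold over the spots outside and so not called.

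The remaining patches were small. In the 33 spots led by 9530077C05Rik, Saa2 and Cd40, 8 of 16 genes were called, 4 higher and 4 lower, where 16.3% of all genes were, 13.1% higher and 3.22% lower. Sult2a7 was at 458 CPM (355 to 582, 67 UMIs), 9.26-fold over the spots outside, against 5.60 to 21.8 CPM in the 4 patches above. The other 3 higher calls, Ugt2b37, Ugt1a7c and Sult1c2, rest on 1 UMI each. Ugt2b34 was at 54.7 against 198 CPM, Ugt3a2 at 75.2 against 171 CPM, Ugt2a3 at 34.2 against 72.3 CPM and Sult2a8 at 82.1 against 205 CPM, from 5 to 12 UMIs in the patch. In the patch led by Fgfbp1, Aqp5 and Ankrd1 (93 spots), 4 of 16 genes were called, 2 higher and 2 lower, where 18% of all genes were, 16% higher and 2% lower. Sult1c2 was at 13.9 against 2.77 CPM and Sult5a1 at 6.93 against 2.89 CPM, while Ugt2b1 was at 8.67 against 38.1 CPM and Sult1b1 at 5.20 against 15.2 CPM, all from 3 to 8 UMIs in the patch. Cholangiocyte markers summed to 362 CPM there against 19.4 CPM outside, and their part was not tested. Sult2a8 was below its level outside in all 6 patches, at 0.279 to 0.635 of it.

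**Figure D5:**
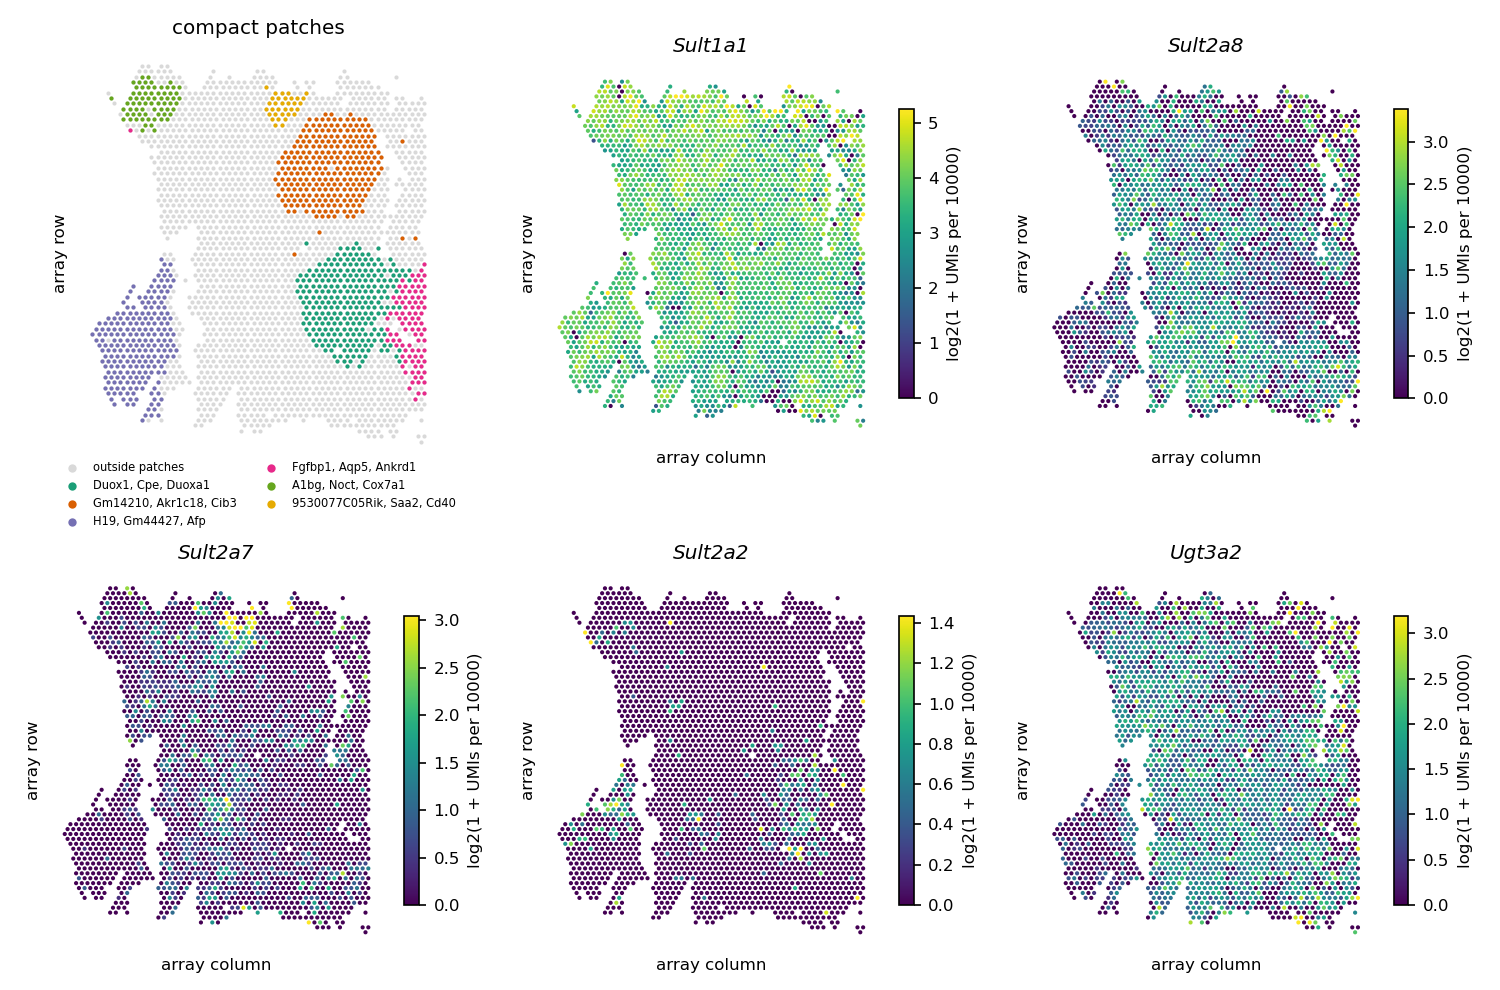
Spots of STAM20w at their array positions, coloured by patch in the first panel and on a log2 scale by the depth-scaled level of Sult1a1, Sult2a8, Sult2a7, Sult2a2 and Ugt3a2 in the others. Sult2a2 is concentrated in the patches led by Duox1 and by H19, which hold 48.8% and 20.9% of its UMIs, and Sult2a8 is low there.

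The spatial spread of the genes was described by Moran's I, which is 0 for a random arrangement and nears 1 where neighbouring spots are alike. In STAM20w it was 0.291 for Sult2a8, 0.274 for Sult1a1, 0.269 for Sult2a7, 0.207 for Sult2a2, 0.205 for Ugt3a2 and 0.190 for Ugt2b5, where the median of all genes was 0.0158 and the 90th percentile 0.0831. In STAM16w Sult1a1 was at 0.0726 and Sult2a8 at 0.0991, where the median of all genes was 0.00453 and the 90th percentile 0.0300. In DEN30w they were at 0.0789 and 0.0331, with a median of 0.0110 and a 90th percentile of 0.0516, and in DEN22w at 0.0493 and 0.0380, with a median of 0.00569 and a 90th percentile of 0.0322. Sult1a1 stood at the 98.3, 97.6, 94.996 and 95.1 percentile of the genes of STAM20w, STAM16w, DEN30w and DEN22w, and Sult2a8 at the 98.5, 98.4, 80.9 and 92.4 percentile. The values of all genes thus differ between sections too, and those of STAM20w include the patches. No test was made of these values.

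Stromal tissue was approached through the 10% of spots in each section with the highest share of 8 stromal genes such as Col1a1 and Dcn, called collagen-rich. They were compared with the other spots by the same blocked edgeR test (n = 4 sections). The share was fixed at 10% in every section, so the class need not be scar. Of 23 genes 9 were called, all lower in collagen-rich spots, where 16.4% of all genes were called, 7.58% higher and 8.85% lower. The median log2 difference was -0.25 over the 23 genes and -0.06 over all genes. Sult1a1 was at 929 against 1268 CPM (collagen-rich against other spots) in STAM20w, 469 against 516 in STAM16w, 324 against 424 in DEN30w and 257 against 298 in DEN22w. It was lower in collagen-rich spots in all 4 sections, with a log2 difference of -0.49 ± 0.0895 (SE, edgeR adjusted p = 4.15e-05). The call held under all 10 alternatives, none of which balanced zone or depth. As given above, collagen-rich spots were more frequent in the pericentral than in the periportal class of STAM20w, DEN30w and DEN22w. The part of zone in the collagen result was not tested. The other 8 called genes were Sult2a7, Sult2a8, Sult5a1, Ugt3a1, Ugt3a2, Ugt2a3, Ugt2b1 and Ugt2b36, with log2 differences from -0.58 to -0.25.

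Those 8 calls rest on the scaling. Without TMM factors only Sult1a1 was called, the median of all genes moved to 0.14, and the split of called genes went to 1863 higher and 253 lower, against 1060 and 1238. In plain CPM, Ugt2b36 was at 282 against 307 in STAM20w, 532 against 546 in STAM16w, 464 against 463 in DEN30w and 451 against 473 in DEN22w, so its classes were nearly level. Sult2a7 was at 26.0 against 39.2 CPM in STAM20w, 30.3 against 27.9 in STAM16w, 7.24 against 12.7 in DEN30w and 12.6 against 17.3 in DEN22w. It was lower in collagen-rich spots in 3 of 4 sections. DESeq2 called 4 of the 23, where it called 8.67% of all genes. Leaving out DEN30w gave 3 called genes of 21 (6.59% of all genes), STAM20w 4 of 20 (11.6%), DEN22w 5 of 23 (11.2%) and STAM16w 7 of 23 (15.1%). Collagen-rich spots were shallower, with median depths of 8327 against 13072.5 UMIs in STAM20w, 8044 against 9908 in STAM16w, 4215 against 10194.5 in DEN30w and 3908 against 7712.5 in DEN22w. In the same fit, with TMM factors, 3 of 6 hepatocyte markers and 7 of 8 periportal landmarks were lower. Of the 8 pericentral landmarks 0 were called, and 5 of 6 cholangiocyte and 4 of 6 macrophage markers were higher. All 4 smooth muscle markers were higher too, with a median log2 difference of 2.18, against 2.10 for the 8 stromal genes. In plain CPM the hepatocyte marker Alb was lower in the collagen-rich spots of STAM20w (19091 against 23640). It was higher in those of STAM16w (13101 against 11743), DEN30w (28575 against 25337) and DEN22w (37304 against 35440). The part of these cell types in the result was not tested. Slc35d1, which carries UDP-glucuronate into the endoplasmic reticulum, was the 1 of 6 UDP-glucuronate genes called, and it was lower (log2 -0.27, edgeR adjusted p = 0.0275). Of 10 tested genes of the sulfate supply and desulfation list 4 were lower: Bpnt1, Slc26a1, Suox and Papss2 (log2 -0.35, -0.34, -0.32 and -0.26). Of these Papss2 makes PAPS.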

How the data were processed

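Visium sections of mouse liver (4) were analysed, grouped by the model named in their titles. Deposited values are raw UMI counts for each gene in each spot, which the authors left unnormalized. Per the submitters' processing notes, Space Ranger 1.3.1 and STAR were used with build mm10. Gene annotation and settings are not given in the sources used here.

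Spots with at least 500 UMIs and 250 genes were kept. CPM is a gene's UMIs over all UMIs of the kept spots. Spots were clustered per section with Leiden (leidenalg 0.10.2, resolution 0.6) with the Ugt and Sult genes left out, and a cluster with at most 15% of spots and at least 70% of neighbour contacts inside it was called a patch. Zones and collagen-rich spots were set as described above. Summed counts were tested with edgeR 4.0.16 in R 4.3.3 (TMM, filterByExpr, quasi-likelihood, adjusted p threshold 0.05), and DESeq2 1.42.0 was the alternative tool. On simulated data with 2-fold changes, 96% of changed genes were recovered between models (14417 genes), 100% between zones and 75% for the interaction (13117 genes each) and 93% between collagen classes (13984 genes). The simulation used 1 fixed dispersion set in advance and changed only well counted genes. It added no differences between sections in the model comparison. These shares therefore do not tell how often a 2-fold difference is found in these data. No doublet caller was run. The genes and lists were chosen with earlier results of these data known. Genes were named by rule: all above 1 CPM with their levels, and those called in a comparison.

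RefSeq positions matched all 43 genes, and promoter windows matched 19 of the 23 above 1 CPM. Alternatives covered scaling, filter, tool, zone and collagen limits, patches, and each section left out.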

Additional observations from a re-analysis of the deposited data

Results flagged for a closer look

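In 4 genes a difference between the models was flagged. The pericentral over periportal difference of Sult1b1 exceeded that of DEN+CCL4 in STAM by a log2 value of 0.80 in edgeR's interaction test (adjusted p = 0.0245, and 0.00140 to 0.130 over its alternatives). In both STAM sections Sult1b1 was higher in pericentral spots, while the DEN+CCL4 sections were level within counting error. The call was lost in 7 of 11 alternatives.

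Between later and earlier sections, 3 genes moved in opposite directions in the models, each with a counting interval clear of no change. The difference between models was not tested, as each time is 1 section. The rule was applied only to the Ugt and Sult genes, so no share of all genes stands beside this count. Counting intervals leave out variation between sections, so the count shows nothing particular to these genes. Ugt2b34 stood at 0.849 of its earlier level in STAM and at 1.13 in DEN+CCL4, a log2 gap of -0.41. Sult1d1 stood at 0.691 in STAM and 1.28 in DEN+CCL4, a gap of -0.89. Sult2a7 stood at 1.36 in STAM and 0.729 in DEN+CCL4, a gap of 0.90.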

How the results depend on the processing

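Over 32 gene results and 263 values of a gene under an alternative, none changed direction: 195 stayed on the same side of their threshold, 56 lost the call and 12 gained it. The cause of these changes was not tested. No paired analysis was possible because the labels carry no replicate numbers shared between the models, and the zone and collagen tests already block on the section.

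Between STAM and DEN+CCL4, 63 genes were called by edgeR, against 1517 by DESeq2, 14 without TMM and 1872 without the filter, and 2 to 922 with 1 section left out. Of the Ugt and Sult genes 0 were called, against 5 by DESeq2, 7 without the filter and 0 to 3 with 1 section left out. Between zones, 1274 genes were called, against 646 by DESeq2, 1940 without the filter, 0 without the section block (322 at an unadjusted p under 0.05) and 656 to 1529 with 1 section left out. Of the Ugt and Sult genes 6 were called, against 0 without the block (0 at an unadjusted p under 0.05) and 5 to 8 with 1 section left out. In the interaction, 240 genes were called, against 57 by DESeq2, 417 without TMM, 520 without the filter, 110 with patches kept in, 142 with the held-out landmarks, 107 without collagen-rich spots and 210 to 534 with 1 section left out. Sult1b1 alone was called, against 0 genes of the group by DESeq2 (which gave Sult1b1 no adjusted p), with patches kept in, narrower zone classes, zones balanced on depth, held-out landmarks or no collagen-rich spots, and 0 to 4 with 1 section left out. Between collagen classes, 2298 genes were called, against 1213 by DESeq2 and 890 to 2095 with 1 section left out, and 9 Ugt and Sult genes, against 4 by DESeq2, 1 without TMM and 3 to 7. Between STAM20w and STAM16w, Ugt3a1, Sult2a8 and Sult2a2 lost their call without the patches.

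Depth limits the low genes: levels under 1 CPM rest on fewer than 40 UMIs per section. With 1 section left out, the lone section left in a model was assumed to vary like the others. The counts of called genes then given for the model comparison and the interaction are not read as results.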

Other observations

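Within DEN30w, the level of Sult1e1 is given for the 7 clusters of spots with no test. It was at 12.5 CPM (7.55 to 19.6, 19 UMIs) in the cluster led by Iglv1, Cyp2a4 and Myh11, at 4.47 to 7.25 CPM in 3 others and at 3.02 CPM (2.08 to 4.24) in the cluster led by Etnppl, Saa2 and Saa1. The cluster led by Dlec1, Slc22a3 and Ccdc152 was at 14.6 CPM (7.98 to 24.5, 14 UMIs), but its 479 spots had a median depth of 1583 UMIs, against 8643 to 24733.5 UMIs in the other clusters. A cluster of 24 spots led by Ifnb1 had 0 UMIs, which allows up to 12.4 CPM.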
